A study of Mus musculus with 24 samples.

Results

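Open chromatin of macrophages grown from the bone marrow of diabetic mice was compared with that of macrophages from control mice after both had met lipopolysaccharide (LPS) and interferon gamma (IFNγ). The comparison takes 12 of the 24 ATAC-seq libraries of the study, chosen by their titles: 6 stimulated diabetic and 6 stimulated control libraries. In the diabetic group, male C57Bl/6 mice had received streptozotocin (STZ) and their macrophages were given 100 ng/mL LPS and 10 ng/mL IFNγ. In the control group, male wild-type C57Bl/6 mice had no treatment, and their macrophages were given the same 100 ng/mL LPS and 10 ng/mL IFNγ. The other 12 libraries, 6 diabetic and 6 control, are the unstimulated counterparts, since each sample was divided between both states. The labels give neither the age of the mice, nor the duration of diabetes, nor the glucose level of the culture medium. They leave the length of the stimulation uncertain, since the treatment protocol speaks of 6 h of culture for a different stimulus, IL-1β. Diabetes is a property of the donor mouse here, whereas the macrophages themselves matured in culture.

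In ATAC-seq, the transposase Tn5 inserts sequencing adapters where DNA is not covered by nucleosomes, so that promoters and enhancers in use appear as peaks of fragments. LPS is sensed by the Toll-like receptor TLR4, whose adaptors activate NF-κB and AP-1, and IFNγ acts through JAK kinases and the transcription factors they switch on. Together they drive classical activation, a state of inflammatory cytokine release and microbial killing, and in doing so they open enhancers of inflammatory genes and close others. STZ destroys the insulin-producing beta cells, which leaves the animal with high glucose and little insulin. Macrophages in diabetes are known for a heightened inflammatory tone. Marks on chromatin that outlast the exposure to glucose are one way in which a memory of it has been described. Such marks are often discussed together with trained immunity.

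No region, out of those tested for being found, for its strength or for the position of its summit, passed the adjusted threshold of 0.05 between diabetic and control macrophages after stimulation. The values below therefore describe the regions that lead each comparison, how far the libraries of a group spread around them, and the differences in whole-library values that come with them. Regions carry the name of the nearest protein-coding gene within 50 kb, which need not be the gene that a region acts on.

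The sequences that follow are start-site windows that lie wholly inside regions of this comparison, from 250 bases before to 50 bases after the start of transcription, taken from RefSeq on GRCm38.p6. Ipo4 encodes an importin and Trim39 a ubiquitin ligase, and their regions are among those that lead the rank comparison in each direction. Hmgb1 encodes a nuclear protein that alerts the receptor RAGE once released, and Tnip1 encodes ABIN1, a brake on NF-κB signalling, and their regions lead their gene lists. The 4 were chosen after their values had been seen. Capitals mark matches on either strand to GGGNNNNNCC (NF-κB), GAAANNGAAA (the interferon-stimulated response element, ISRE), TGANTCA (AP-1), TGTGGT (RUNX) or GGAAGT (ETS). Windows run 5′ to 3′ on the strand of the gene, and all 4 genes lie on the minus strand.

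Ipo4, chr14:55635635-55635934: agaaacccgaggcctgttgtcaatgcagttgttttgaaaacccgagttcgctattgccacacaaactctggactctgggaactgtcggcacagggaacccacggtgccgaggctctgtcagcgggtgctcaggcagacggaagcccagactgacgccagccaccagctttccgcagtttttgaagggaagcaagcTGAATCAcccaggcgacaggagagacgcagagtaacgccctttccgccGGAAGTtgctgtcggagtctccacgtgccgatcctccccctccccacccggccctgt
Trim39, chr17:36271382-36271681: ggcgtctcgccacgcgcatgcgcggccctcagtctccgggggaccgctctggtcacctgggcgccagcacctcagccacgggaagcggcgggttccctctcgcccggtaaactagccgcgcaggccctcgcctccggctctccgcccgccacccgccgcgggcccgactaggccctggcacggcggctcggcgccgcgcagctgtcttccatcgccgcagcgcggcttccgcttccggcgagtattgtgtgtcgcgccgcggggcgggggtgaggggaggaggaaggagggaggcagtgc
Hmgb1, chr5:149051567-149051866: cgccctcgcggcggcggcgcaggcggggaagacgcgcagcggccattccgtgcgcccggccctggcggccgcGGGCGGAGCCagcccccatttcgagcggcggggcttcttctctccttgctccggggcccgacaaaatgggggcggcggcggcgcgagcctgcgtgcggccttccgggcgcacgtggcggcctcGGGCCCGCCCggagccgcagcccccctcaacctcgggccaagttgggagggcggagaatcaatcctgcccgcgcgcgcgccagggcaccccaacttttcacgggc
Tnip1, chr11:54962891-54963190: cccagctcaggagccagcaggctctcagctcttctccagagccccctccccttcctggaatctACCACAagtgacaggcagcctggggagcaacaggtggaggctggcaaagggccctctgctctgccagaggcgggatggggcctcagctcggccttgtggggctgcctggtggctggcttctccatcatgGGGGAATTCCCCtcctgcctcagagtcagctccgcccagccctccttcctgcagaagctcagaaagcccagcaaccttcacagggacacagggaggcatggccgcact

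The Tnip1 window held 3 NF-κB matches, which overlap one another in a single run of capitals, and 1 RUNX match. The Hmgb1 window held 2 NF-κB matches, the Ipo4 window 1 AP-1 and 1 ETS match, and the Trim39 window none of the 5. Of all 32851 start-site windows of the table, 50.8% held the NF-κB letters, 3.44% the ISRE letters, 7.81% the AP-1 letters, 16.8% the RUNX letters and 23.8% the ETS letters. The matches are letters only and say nothing of binding.

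The 12 stimulated lists held 605823 peaks. Stimulated diabetic macrophages had 56932, 52917, 58016, 50749, 46503 and 57100 peaks (replicates 1 to 6), and stimulated control macrophages had 46679, 47920, 41385, 44525, 48137 and 54960. Diabetic replicates 1, 3 and 6 were above every control library, whereas diabetic replicate 5 lay among the controls and control replicate 6 among the diabetic libraries. The mean was 53703 ± 4511 peaks in diabetic and 47268 ± 4535 in control macrophages (SD, n = 6 each). The two-sided exact permutation test over all 924 label orders gave p = 0.0346, or 0.0693 after adjustment over 4 library values, so the difference did not pass. It passed once diabetic replicate 5 was left out (7875 peaks, adjusted p = 0.0303), control replicate 6 (7974 peaks, adjusted p = 0.0231) or both (9414 peaks, adjusted p = 0.0106, exact permutation tests), a choice made after the data had been seen. These were the lowest diabetic and the highest control library, so leaving them out widens the gap by construction. The unadjusted exact permutation p without both, 0.00794, is the smallest that 252 label orders allow. Before stimulation the means were 55522 peaks in diabetic and 55990 in control macrophages (exact permutation p = 0.859). The difference between states, 6903 peaks, had an exact permutation p of 0.0792, adjusted to 0.181.

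Gene ends here are both boundaries of a protein-coding gene, so that starts of genes count among them. The share of peaks within 1 kb of a gene end averaged 23.8% ± 1.58 in diabetic and 26.2% ± 1.64 in control macrophages (SD, n = 6 each). It was lower in the diabetic group with p = 0.0260, adjusted to 0.0693 (exact permutation test). The lowest, median and highest values were 22.5%, 23.2% and 26.4% in diabetic libraries and 24.1%, 26.1% and 28.9% in control libraries, so the groups overlapped. Peaks covered 19.4 ± 1.95 Mb in diabetic and 17.3 ± 2.62 Mb in control macrophages (adjusted p = 0.196, exact permutation test). Without diabetic replicate 5 the adjusted p of the gene end share was 0.0303, and without control replicate 6 that of both values was 0.0231 (exact permutation tests). These 2 libraries were chosen after the data had been seen. For both values each lay at the end of its group nearest the other group. Leaving them out thus widens the gap by construction. In lists of equal length the gene end share was 26.5% ± 0.998 in diabetic and 27.7% ± 0.711 in control libraries (exact permutation p = 0.0584, adjusted p = 0.175). The median peak width averaged 300.2 bp in diabetic and 300.3 bp in control libraries.

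Peak number depends on how deeply a library was read, which the sources used here do not state as read totals. The background level per peak, solved from the fold and p-value of each peak as a stand-in for depth, spanned 0.707 to 1.007 tags in diabetic and 0.760 to 0.963 tags in control libraries (exact permutation p = 0.848). The median fold over the regions found in all 12 libraries, a measure of how far peaks stand above background, averaged 8.59 ± 0.91 in diabetic and 7.68 ± 0.37 in control libraries (SD, n = 6 each; exact permutation p = 0.0671, adjusted p = 0.201). Without diabetic replicate 5 its p was 0.0238, adjusted to 0.0714, and without diabetic replicate 5 and control replicate 6 it was 0.0397, adjusted to 0.0595 (exact permutation tests). Here too these were the lowest diabetic and the highest control library. Diabetic replicates 1, 3 and 6 had 9.27, 9.23 and 9.69, above the highest control library at 8.07. Whether signal over background accounts for the peak numbers was not tested. The lists were therefore also cut to equal length, the 41385 strongest peaks of each library by q-value, and values from these lists are given beside the whole-library and detection results below.

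Stimulated macrophages lacked a peak in part of the regions found at rest. Of the 32196 regions present in all 12 unstimulated lists, stimulated diabetic macrophages kept 93.5% ± 3.45 and stimulated control macrophages 88.9% ± 2.93 (SD, n = 6 each). The exact permutation p was 0.0346 and the adjusted p was 0.201 over 6 values that were added after the data had been seen. Diabetic libraries kept between 88.0% and 96.8%, and control libraries between 84.3% and 92.3%. In lists of equal length, diabetic libraries kept 87.5% ± 1.99 and control libraries 85.4% ± 0.94, with an adjusted p of 0.0476 over 3 values (exact permutation test). That call was not stable, since the unadjusted p was between 0.0563 and 0.0887 when any one of 9 of the 12 libraries was left out, namely diabetic replicates 1, 2, 3 and 6 and control replicates 1, 3, 4, 5 and 6 (exact permutation tests). Regions of no unstimulated list, of which there were 16668, numbered 3604 ± 773 per diabetic and 2720 ± 935 per control library (exact permutation p = 0.113). Without diabetic replicate 5 and control replicate 6 they differed by 1500.0 regions, with p = 0.00794 and an adjusted p of 0.0159 (exact permutation test). This order turned round with lists of equal length, to 1533 ± 119 in diabetic and 1702 ± 107 in control libraries, with p = 0.0281 and an adjusted p of 0.0422 (exact permutation test). The p was again above 0.05, at 0.0519 to 0.0563, without diabetic replicate 3 or 5 or control replicate 4, 5 or 6 (exact permutation tests). As a share of a library's regions they made up 3.88% ± 0.301 in diabetic and 4.38% ± 0.278 in control lists of equal length. The exact permutation p of this share was 0.0152, adjusted to 0.0422, and it stayed between 0.00649 and 0.0303 with any 1 library left out. With all peaks the order was again the other one, at 7.11% ± 1.04 in diabetic and 6.07% ± 1.40 in control libraries (exact permutation p = 0.171). Without diabetic replicate 5 and control replicate 6 the share kept at all peaks differed by 6.39 percentage points, with an adjusted p of 0.0159 (exact permutation test). For all of these values at all peaks, diabetic replicate 5 was the lowest diabetic and control replicate 6 the highest control library. Leaving them out, a choice made after the data had been seen, thus widens the gap by construction. The exact permutation p of 0.00794 is the smallest that the remaining 252 label orders allow.

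**Figure D1:**
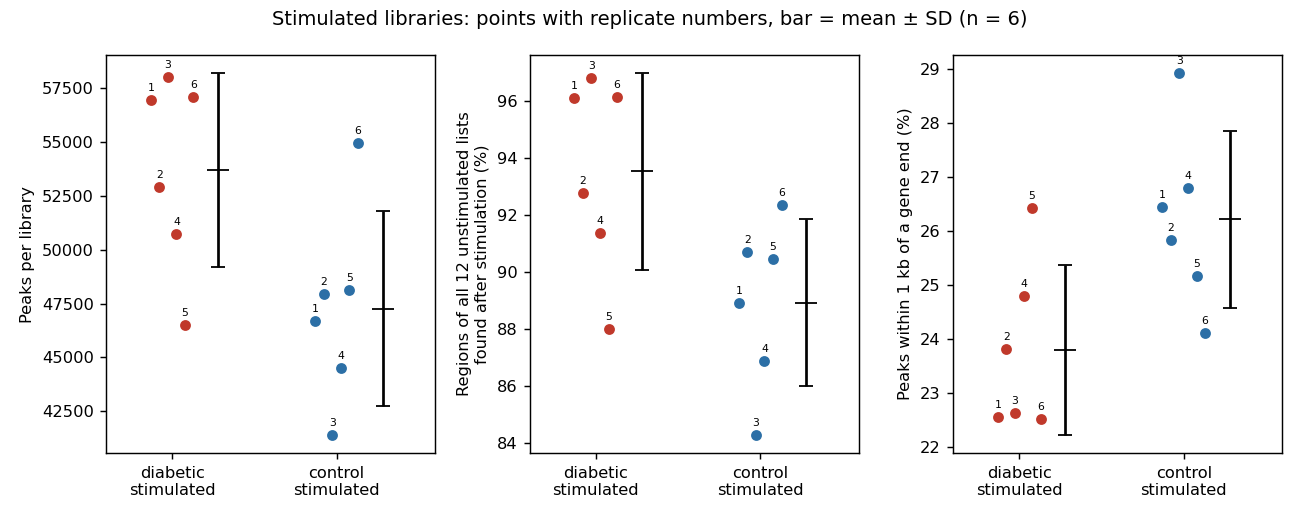
Values per stimulated library: peaks per library, percent of the regions of all 12 unstimulated lists found after stimulation, and percent of peaks within 1 kb of a gene end. Diabetic libraries are on the left and control libraries on the right, points carry the replicate number, and bars are mean ± SD (n = 6 each). Diabetic replicate 5 and control replicate 6 sit inside the range of the other group.

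Most macrophage marker genes were accessible in all 12 libraries. A gene was counted here only if the region lay in its body, so regions just outside a gene were left out. Of 10 defining macrophage genes, the body of 8 held a region found in all 12 libraries, among them the CSF1 receptor gene Csf1r. The bodies of the lineage factor gene Spi1 and the lysozyme gene Lyz2 held no region found in all 12. Of the defining genes of other cell types, the gene body held such a region for 1 of 10 neutrophil, 3 of 10 T and NK cell, 0 of 8 B cell, 2 of 8 erythroid and megakaryocytic, 3 of 7 dendritic, 0 of 5 mast cell and 4 of 8 stromal and endothelial genes. The summed density of neutrophil gene peaks ran from 0.189 to 0.293 per 1000 peaks in diabetic and from 0.209 to 0.273 in control libraries.

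Pairs of diabetic libraries shared a mean of 68.1% of their regions (the Jaccard index), pairs of control libraries 66.1%, and pairs across phenotypes 65.9%. Pairs within a phenotype exceeded pairs across by 1.18 percentage points (exact permutation p = 0.0346). With lists of equal length the excess was 0.34 points, with an exact permutation p of 0.0779. For the order of peak strength over shared regions the mean Spearman correlation was 0.751 among diabetic, 0.733 among control and 0.736 between diabetic and control libraries, and the excess within phenotypes, 0.00615, had an exact permutation p of 0.316. Diabetic replicates 1, 3 and 6 were most alike, with the highest correlation, 0.83, between replicates 1 and 3. Diabetic replicate 5 and control replicate 6 stood apart, with mean correlations to the other 11 libraries of 0.702 and 0.692, and each was more like the other, at 0.738, than like any library of its own group. The whole-library values and the detection counts that change without these 2 libraries are given both ways.

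A region without a peak fell below the authors' calling threshold, a q-value of about 0.05, and may still have been open. Merged over all 24 lists, 83294 regions were found in at least 1 stimulated library and 25221 of them (30.3%) in all 12. Fisher's exact test could separate the groups in 9681 regions, of which 0 passed the adjusted threshold in either direction (0% each, smallest adjusted p 0.502). At an unadjusted p under 0.05, 283 regions were found in more diabetic and 9 in more control libraries (2.92% and 0.093% of those tested). Complete separation, with a peak in all 6 libraries of one group and in 0 of the other, occurred at 26 regions for the diabetic group and at 0 for the control group (0.269% and 0%). Fisher's exact test gives complete separation an unadjusted p of 0.00216, and 420 such regions would have been needed for an adjusted p of 0.05. Equal-length lists gave uneven regions numbering 92 in favour of diabetic and 51 in favour of control libraries (1.21% and 0.669%), with 33 and 2 of them shared with those from all peaks. The completely separated regions then numbered 5 and 4. Leaving out 1 library moved the 283 to between 359 and 722, with 495, 562 and 722 without diabetic replicates 2, 4 and 5 and 460, 469 and 646 without control replicates 2, 5 and 6. Without the 2 libraries that stand apart, 1377 regions favoured the diabetic and 21 the control group at an unadjusted p under 0.05, and again 0 passed. These 2 libraries had the fewest peaks of the diabetic and the most of the control group. A larger count on the diabetic side without them was thus favoured in advance.

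**Figure D2:**
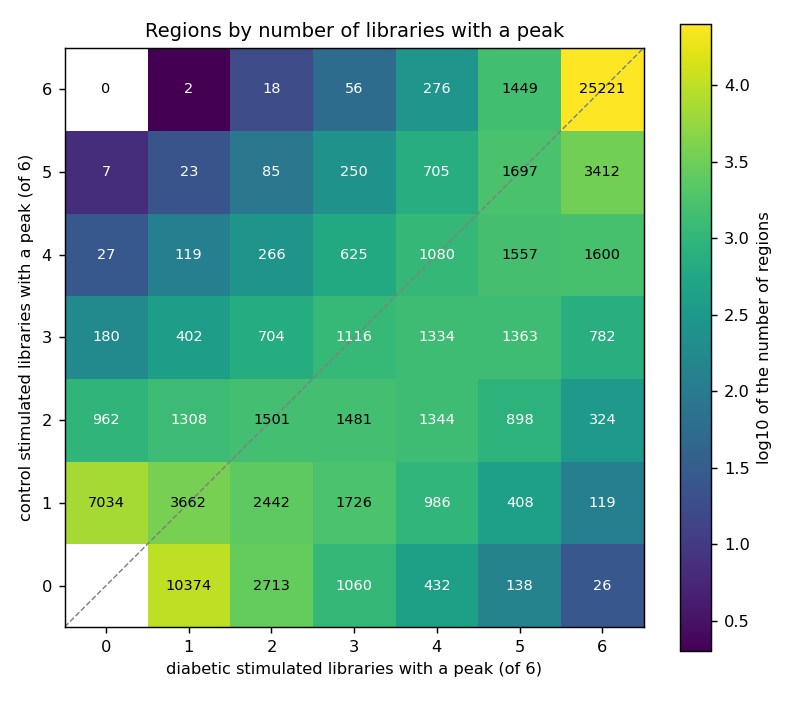
Number of regions for each combination of diabetic stimulated (x axis) and control stimulated (y axis) libraries with a peak, coloured on a log10 scale. Counts are larger on the diabetic side of the dashed diagonal, with 26 regions in the bottom right corner and 0 in the top left corner.

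Regions found in more diabetic than control libraries were often open at rest in both phenotypes, as were the tested regions as a whole. The 283 had a peak in a median of 8 of the 12 unstimulated libraries, against 7 over all regions tested. Of the 283, 68 (24.03%) were present in all 12 unstimulated libraries, against 17.04% of all regions tested, and 18 (6.36%) in none, against 11.5%. They were present in a mean of 3.94 of the 6 unstimulated diabetic libraries and 3.77 of the 6 unstimulated control libraries. Over all regions tested these means were 3.36 and 3.37. Of the 26 completely separated regions, 9 (34.6%) were in all 12 unstimulated libraries and 2 (7.69%) in none, against 17.04% and 11.5% of all regions tested. Gene ends held 6.36% of the 283 regions and 8.85% of all those tested. These regions were chosen by the stimulated libraries, and the unstimulated libraries come from the same samples, so the counts at rest are a description and not an independent check. Before stimulation, 58 regions favoured diabetic and 79 control libraries at an unadjusted p under 0.05 (0.660% and 0.899% of 8788 tested), and 0 passed. Zelen's exact test of the difference between states gave 0 regions past the threshold of 10469 tested, with 229 at an unadjusted p under 0.05. It treats the states as independent, although each sample was divided between them.

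The leading region on the diabetic side lay in the body of Inpp4b, which encodes a phosphatase that removes the 4-phosphate from the phosphoinositide made by PI3-kinase (chr8:81466759-81467157). It had a peak in 6 of 6 diabetic libraries, with a lowest, median and highest fold over background of 3.81, 6.58 and 8.22, and in 0 of 6 control libraries. At rest, 5 of 6 diabetic and 5 of 6 control libraries had it. A second region of the same gene (chr8:81636127-81636811) also had 6 diabetic and 0 control peaks, with folds of 4.75, 5.59 and 6.90. It was found in no unstimulated library of either phenotype, and 5 diabetic and 0 control libraries kept it in lists of equal length. Both Inpp4b regions thus separated the groups fully after stimulation, and only the second was absent at rest in both phenotypes.

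The other 8 of the 10 leading regions on the diabetic side also had 6 diabetic and 0 control peaks. Gene bodies held those at Ift74, a subunit of intraflagellar transport (chr4:94669760-94670107), Zmynd10, an assembly factor of ciliary dynein (chr9:107548107-107548457), and Stk3, a kinase of the Hippo pathway (chr15:34927668-34928204). The region at P2ry1, an ADP receptor, lay 8059 bp from the gene (chr3:61016874-61017209), that at Gm14037 24308 bp away (chr2:134756092-134756416) and that at Zadh2 21843 bp away. A further 2 had no gene within 50 kb (chr13:37704495-37705087 and chr1:91692623-91693128). In the unstimulated libraries each of the 8 had a peak in 4 to 6 diabetic and in 5 or 6 control libraries. The q-value of the 10 leading regions had a median percentile of 27.9 to 49.5 over the diabetic libraries' own lists, where a higher percentile is a stronger peak. In a single library it reached 72.0, at the first Inpp4b region. Lists of equal length kept 3 to 6 of the 6 diabetic peaks and 0 control peaks at these 10, with all 6 kept at Gm14037. The 10 were picked from 26 tied regions by their median −log10 q-value, and the equal-length cut also goes by q-value. Their survival was thus favoured in advance, and the other completely separated regions kept 0 to 5 diabetic peaks.

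On the control side, 9 regions reached an unadjusted p under 0.05. At Acod1, which makes the antimicrobial metabolite itaconate and is a hallmark of LPS-activated macrophages, a region of the gene body (chr14:103052327-103052904) had a peak in 0 of 6 diabetic and 5 of 6 control libraries. Its median fold in those 5 was 2.87, and no unstimulated library had it. The same counts of 0 and 5 held for regions at Nr6a1, an orphan nuclear receptor (chr2:38866620-38867090), Cdc42se2, an effector of Cdc42 (chr11:54748847-54749171), Chchd3, a protein of the mitochondrial inner membrane (chr6:32997501-32997821), Ep400, the ATPase of a chromatin remodeller (chr5:110739825-110740197), and Tmem144 (chr3:79854018-79854281), and for 1 region with no gene within 50 kb (chr10:37447827-37448239). The regions at Rragd, a Rag GTPase that brings mTORC1 to the lysosome (chr4:33018380-33018788), and at F2rl1, which encodes the protease-activated receptor PAR2 (chr13:95524618-95525183), had 1 diabetic and 6 control peaks. The tenth, at the T cell costimulator gene Icos, had 1 and 5 (p = 0.0801, Fisher's exact test). In equal-length lists the Rragd region still had 1 diabetic and 6 control peaks and the Nr6a1 region 0 and 5, whereas the Tmem144 region had 0 and 1.

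To compare strength, the fold of each peak was turned into a percentile rank within its own library, over the 25221 regions found in all 12. In the limma fit on normal scores of these ranks, 0 regions passed the adjusted threshold in either direction (0% each), and the smallest adjusted p was 0.299. At an unadjusted p under 0.05, 889 regions were higher and 728 lower in diabetic macrophages (3.52% and 2.89%). The exact permutation test per region gave 733 higher and 897 lower ones, the other balance, and also called 0. In 37 regions every diabetic library ranked above every control library, and in 46 every diabetic library ranked below (0.147% and 0.182%). The difference in mean rank was under 10 percentile points at 75.2% of regions, with extremes of 44.3 and -38.5 points. The median half-width of its 95% interval, which is not adjusted for the number of regions, was 17.1 points. Differences of more than 20 points occurred at 571 higher and 306 lower regions, and none of them passed. Differences larger than the half-width can therefore also have been missed with these libraries. Fewer cells with an open region and less signal per cell cannot be told apart in such libraries.

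**Figure D3:**
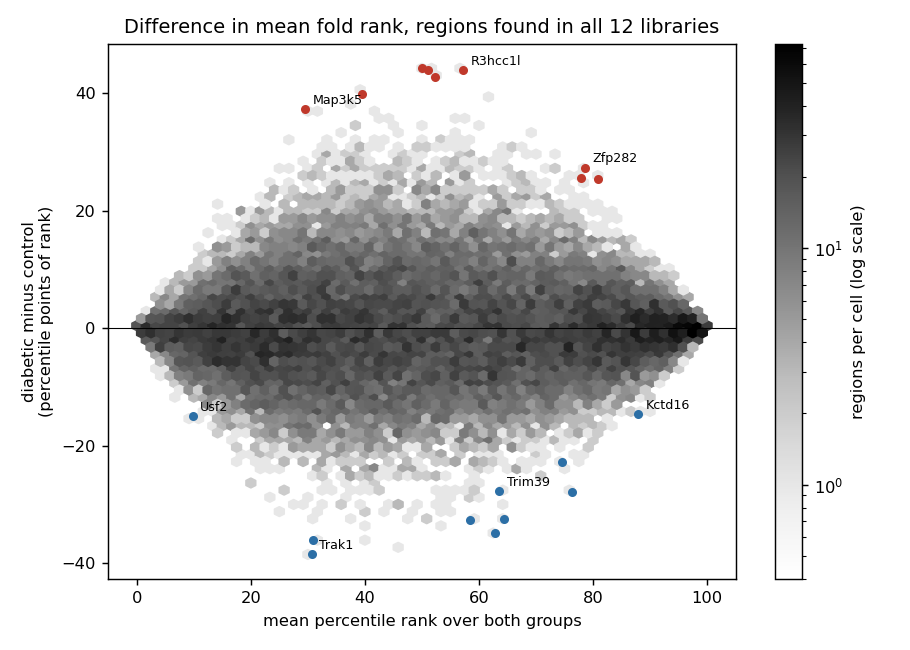
Difference in mean percentile rank of the fold (diabetic minus control, percentile points) against the mean rank over both groups, for the 25221 regions found in all 12 libraries. Shading counts regions on a log scale, and coloured points are 9 regions higher and 10 lower in diabetic libraries, those with the smallest unadjusted p, none of which passed adjustment.

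The regions with the smallest p on the diabetic side, none past the threshold, were led by one in the body of Zfp282, a zinc finger gene (chr6:47888718-47889212). Its lowest, median and highest ranks were 88.6, 91.1 and 96.7 in diabetic libraries and 54.6, 61.4 and 79.7 in control libraries. The groups did not overlap, and the difference was 27.4 points (95% interval 17.2 to 37.5, limma adjusted p = 0.299). At rest, where ranks run over the 32196 regions found in all 12 unstimulated libraries and so are not on the same footing, the means were 38.4 in diabetic and 35.7 in control macrophages.

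Map3k5 encodes ASK1, a stress-activated kinase upstream of JNK and p38. A region of its body (chr10:19999675-20000148) had no peak in any of the 12 unstimulated libraries and a peak in all 12 stimulated ones. It ranked at 36.4, 49.9 and 58.6 (lowest, median and highest) in diabetic libraries and at 2.24, 9.56 and 22.9 in control libraries. The lowest diabetic library thus stood above the highest control library, with a difference of 37.3 points (95% interval 22.8 to 51.8, limma adjusted p = 0.299).

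Nceh1 encodes the neutral cholesterol ester hydrolase that frees cholesterol in lipid-laden macrophages. The region in its body (chr3:27218568-27219112) ranked at 62.0, 72.8 and 88.35 in diabetic libraries and at 7.92, 26.4 and 56.5 in control libraries. The groups did not overlap. The means at rest were 90.8 in diabetic and 82.1 in control macrophages.

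The start of Ipo4, printed above, lies in a region (chr14:55635274-55635935) that ranked at 88.2, 92.8 and 98.5 in diabetic libraries and at 39.3, 69.2 and 87.7 in control libraries. At rest it averaged 93.9 in diabetic and 94.7 in control macrophages. The limma test of the difference between states had an unadjusted p of 0.000628 there, and over the 22770 regions found in all 24 libraries the smallest adjusted p was 0.673.

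Of the remaining regions on the diabetic side, those near the actin regulator gene Enah (17825 bp away, chr1:182045131-182045631), near Ankrd60 (27627 bp away, chr2:173605648-173606152) and in 5430427O19Rik (chrX:85828024-85828638) did not overlap between groups. Their differences were 25.6, 42.7 and 39.97 points. The region 40029 bp from R3hcc1l (chr19:42477668-42478234) and 1 with no gene within 50 kb, on chromosome 18, differed by 43.9 and 44.3 points, with groups that overlapped. The R3hcc1l region was also higher at rest, with mean ranks of 58.0 in diabetic and 33.3 in control macrophages (limma unadjusted p = 0.00441).

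On the side of lower rank in diabetic macrophages, the region with the smallest p lay in Trak1, an adaptor that couples mitochondria to kinesin (chr9:121352171-121352643). It ranked at 1.76, 12.3 and 19.3 in diabetic libraries and at 33.2, 48.0 and 68.0 in control libraries. The groups did not overlap, with a difference of -38.5 points (95% interval -53.7 to -23.3, limma adjusted p = 0.299). At rest both phenotypes ranked low there, at 17.7 in diabetic and 16.3 in control macrophages.

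At a boundary of Usf2, which encodes a transcription factor that binds E-boxes, lay a region (chr7:30955826-30956599) of low rank in every library, at 1.001, 1.84 and 4.61 in diabetic and 7.73, 15.5 and 29.1 in control libraries. The groups did not overlap. The region with the Trim39 start (chr17:36270849-36272041) ranked at 45.0, 48.8 and 57.2 in diabetic and at 59.4, 79.9 and 86.7 in control libraries. The 6 diabetic libraries lay within a narrow band there, below all 6 control libraries.

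Groups that did not overlap were also found at 3300002I08Rik (chr2:150362366-150363267), at Kctd16, an auxiliary subunit of GABA-B receptors, and at 2 regions with no gene within 50 kb (chr5:100217014-100217988 and chr4:55650984-55652069), with differences of -27.8, -14.6, -36.1 and -22.8 points. Groups overlapped at the region 5780 bp from Fundc1, a receptor for mitophagy (chrX:17513921-17514453), at Got1l1 (chr8:27206373-27207130) and at 1 region with no gene within 50 kb on chromosome 18, with differences of -32.5, -32.6 and -34.9 points. Limma adjusted p-values of these regions lay between 0.299 and 0.668.

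**Figure D4:**
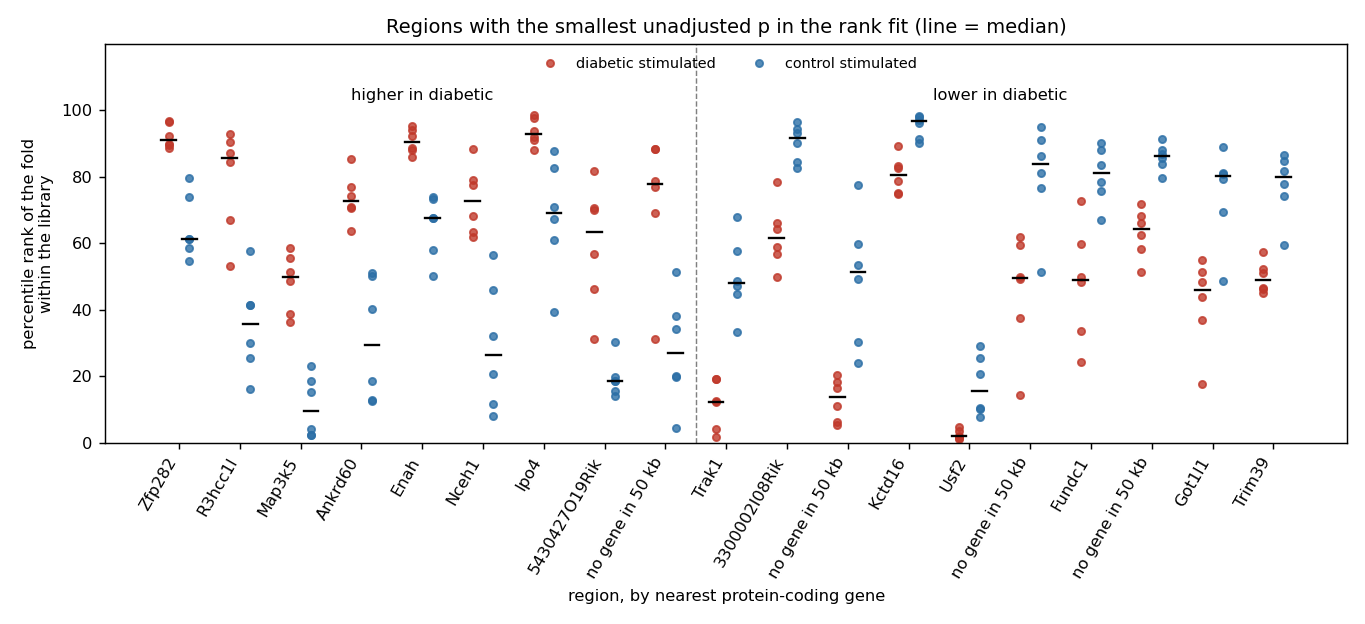
Percentile rank of the fold within each library at regions with the smallest unadjusted p, 9 higher and 10 lower in diabetic libraries, diabetic stimulated libraries left of control stimulated ones, with 1 point per library and a line at the median of 6. At Zfp282, Map3k5, Trak1 and Usf2, among others, the groups do not overlap, and none of the 19 passed adjustment.

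Genes of the inflammatory response were read through lists, with the regions near them counted beside all regions. Over all 25221 regions the median rank difference was -0.335 points and 48.0% were higher in diabetic macrophages. The medians of the 14 pathway lists lay close to this, the lowest at insulin, PI3-kinase and RAGE signalling (-2.61 points, 23 of 74 regions higher) and the highest at inflammatory cytokines (1.005 points, 25 of 47 higher). No region of any list passed in the rank fit or in detection. In detection, 293 regions near listed genes were tested, of which 7 (2.39%) favoured the diabetic and 1 (0.341%) the control group at an unadjusted p under 0.05. Over all 8497 tested regions within 50 kb of a gene these shares were 2.75% and 0.0942%, so the diabetic share of the listed genes was near the background.

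Among cytokine genes, 3 of 47 regions were higher and 3 lower in diabetic macrophages at an unadjusted p under 0.05 (6.38% each, against 3.52% and 2.89% of all regions). The smallest p was at a region 32342 bp from Csf2, which encodes the growth factor GM-CSF (chr11:54214451-54215405). It ranked at 44.9, 71.7 and 77.9 in diabetic and at 26.3, 43.8 and 58.8 in control libraries, so the groups overlapped (limma adjusted p = 0.689). The region most uneven in detection lay at a boundary of the chemokine gene Ccl4 (chr11:83663546-83664535), with 1 diabetic and 4 control peaks.

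Among interferon response genes, 4 of 62 regions were higher and 2 lower at an unadjusted p under 0.05 (6.45% and 3.23%, against 3.52% and 2.89% of all regions). A region 6730 bp from Irf8, a lineage factor of macrophages that IFNγ induces (chr8:120763197-120763652), ranked at 27.8, 58.2 and 80.5 in diabetic and at 7.71, 20.01 and 38.2 in control libraries, a difference of 34.97 points with overlapping groups (limma adjusted p = 0.668). In the body of Usp18, whose product restrains interferon receptors (chr6:121261285-121261719), a region had 5 diabetic and 0 control peaks after stimulation and 3 diabetic and 1 control peaks at rest. Only 2 diabetic and 0 control peaks were left at Usp18 with lists of equal length.

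Genes of classical activation pointed both ways. The Acod1 region above favoured control libraries, and a region in Cd86, a costimulator of T cells (chr16:36609427-36609702), had 5 diabetic and 0 control peaks and none at rest. A second Cd86 region (chr16:36626765-36627290), found in all 12, ranked at 73.9, 84.6 and 96.1 in diabetic and at 55.3, 66.3 and 83.8 in control libraries (limma adjusted p = 0.732). Among genes of alternative activation, a region 14721 bp from Pparg, the lipid-sensing nuclear receptor gene (chr6:115504911-115505339), had 6 diabetic peaks and 1 control peak, from replicate 6, and a peak in all 12 unstimulated libraries. Lists of equal length kept 5 diabetic and 1 control peaks there. The start of Clec7a, which encodes the beta-glucan receptor dectin-1 (chr6:129472605-129473115), ranked at 53.4, 62.6 and 77.6 in diabetic and at 9.89, 41.4 and 68.1 in control libraries.

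In the TLR and NF-κB list, 2 of 85 regions were higher and 2 lower in diabetic macrophages at an unadjusted p under 0.05 (2.35% each, against 3.52% and 2.89% of all regions). The smallest p was in the body of Ikbkb, which encodes the kinase IKKβ (chr8:22698008-22698420), with ranks of 0.244, 3.62 and 16.7 in diabetic and 6.19, 16.9 and 31.0 in control libraries. Among negative regulators, 0 of 82 regions were higher and 2 lower (0% and 2.44%, against 3.52% and 2.89% of all regions). One of these was the Tnip1 start (chr11:54962811-54963453), the region of the NF-κB letters printed above, which ranked at 0.613, 3.10 and 20.02 in diabetic and at 6.39, 11.4 and 36.5 in control libraries. The groups overlapped at both, and the limma adjusted p was 0.732 at Ikbkb and 0.741 at Tnip1. Detection was most uneven at Map3k7, the gene of the kinase TAK1 (5 diabetic and 1 control peaks), and at Dusp10, the gene of a phosphatase of p38 and JNK (5 and 1).

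Insulin signalling is the arm most directly altered by STZ. Near Foxo1, the forkhead factor gene that insulin signalling holds in check, a region 10964 bp from the gene (chr3:52360903-52361244) had a peak in 6 of 6 diabetic and 0 of 6 control libraries after stimulation, and in 3 diabetic and 1 control libraries at rest. Its lowest, median and highest folds in diabetic libraries were 3.84, 4.79 and 5.81, and the median percentile of its q-value in those lists was 13.9. A region 40217 bp from Irs2, an adaptor of the insulin receptor (chr8:11048970-11049323), had 6 diabetic peaks and 1 control peak. With lists of equal length both regions were left with 1 diabetic and 0 control peaks. Over the 25 regions of the list tested in detection, 12 were found in more diabetic and 11 in more control libraries, against 68.7% in more diabetic libraries over all regions within 50 kb of a gene.

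The region with the smallest p in the rank fit of that list held the start of Hmgb1 (chr5:149051295-149052486). It ranked at 4.44, 6.14 and 8.65 in diabetic and at 8.63, 28.2 and 48.4 in control libraries, so that a single diabetic library, the highest, lay just above the lowest control library. The difference was -22.4 points (95% interval -35.0 to -9.90, limma adjusted p = 0.670). At rest the means were 8.20 in diabetic and 12.1 in control macrophages.

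Among genes of glucose uptake and glycolysis, a region 2851 bp from Slc2a1, the gene of the glucose transporter GLUT1 (chr4:119105683-119106106), did not overlap between groups, at 4.72, 5.64 and 8.33 in diabetic and 0.0734, 0.716 and 4.65 in control libraries (limma adjusted p = 0.668). Both groups ranked low there, and the difference was 4.75 points. In the lipid list, a region 27541 bp from the cholesterol exporter gene Abca1 (chr4:53187088-53187970) ranked at 2.51, 7.14 and 26.0 in diabetic and at 13.3, 30.6 and 59.1 in control libraries (limma adjusted p = 0.670). Of the lipid list, 2 of 70 regions were higher and 1 lower at an unadjusted p under 0.05 (2.86% and 1.43%, against 3.52% and 2.89% of all regions).

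Enzymes that write and erase histone marks are often discussed in trained immunity. In the body of Kdm6b, which encodes a demethylase of histone H3 lysine 27 induced by LPS (chr11:69418509-69419384), the ranks were 9.75, 26.5 and 47.5 in diabetic and 1.38, 7.84 and 19.97 in control libraries (limma adjusted p = 0.670). A region in Hdac9, a histone deacetylase gene (chr12:34495998-34496446), had 5 diabetic and 0 control peaks, and 4 and 0 with lists of equal length. Of the 61 regions of the list, 3 were higher and 3 lower in diabetic macrophages at an unadjusted p under 0.05 (4.92% each, against 3.52% and 2.89% of all regions).

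Transcription factors of the RUNX, AP-1 and myeloid families had 145 regions found in all 12, of which 7 were higher and 3 lower at an unadjusted p under 0.05 (4.83% and 2.07%, against 3.52% and 2.89% of all regions). The smallest p was in Runx2 (chr17:44613763-44614407), at 35.4, 51.6 and 60.4 in diabetic and 5.25, 13.8 and 39.1 in control libraries, a difference of 32.2 points (limma adjusted p = 0.668). The density of peaks near this list was 5.01 per 1000 peaks in diabetic and 5.27 in control macrophages (exact permutation p = 0.00866, adjusted over 21 lists to 0.182). It was the smallest p of the lists, and 0 passed. With lists of equal length the densities were 5.29 in diabetic and 5.36 in control macrophages, a difference of -0.0725 against -0.263 per 1000 peaks with all peaks (exact permutation p = 0.461).

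**Figure D5:**
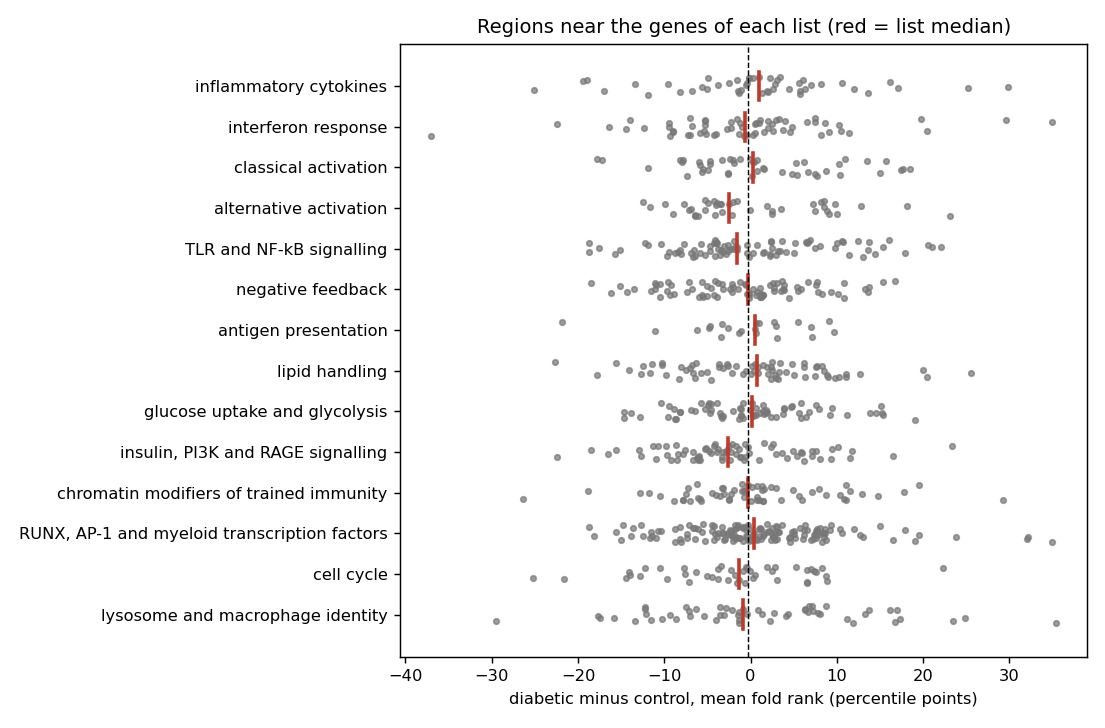
Difference in mean percentile rank (diabetic minus control, percentile points) of each region found in all 12 libraries near the genes of the 14 pathway lists. Grey points are regions, red lines list medians, and the dashed line is the median of all regions, -0.335 points. List medians lie between -2.61 and 1.005.

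In the lists of antigen presentation, cell cycle and macrophage identity, 0 of 22, 1 of 45 and 3 of 55 regions were higher and 1, 3 and 1 lower at an unadjusted p under 0.05. The higher ones were 0%, 2.22% and 5.45% and the lower ones 4.55%, 6.67% and 1.82% of their lists, against 3.52% and 2.89% of all regions. The regions with the smallest p lay 8458 bp from the MHC class II gene H2-Aa (-21.8 points), 42516 bp from the proliferation gene Mki67 (22.3 points) and 3657 bp from the efferocytosis receptor gene Mertk (35.4 points). At Mertk (chr2:128806567-128807071) the ranks were 32.5, 85.7 and 90.2 in diabetic and 8.24, 40.7 and 64.7 in control libraries, with overlapping groups. A region in Mcm5, a subunit of the replicative helicase (chr8:75119727-75120129), had 6 diabetic peaks and 1 control peak. Elsewhere detection was most uneven at regions with 5 diabetic and 1 control peaks near the hexokinase gene Hk2 and with 4 and 1 near the MHC class I activator gene Nlrc5, in Abca1, near the AP-1 family gene Batf3 and in Sirpa, a receptor that restrains phagocytosis (p = 0.0801 at Hk2 and 0.242 at the others, Fisher's exact test).

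All 4 regions near neutrophil genes ranked higher in diabetic macrophages, by a median of 15.5 points. They were 3 near Mmp8, a granule collagenase gene, and 1 near Camp, the cathelicidin gene, and 3 of the 10 neutrophil genes had no region in any stimulated library. The region at the start of Mmp8 (chr9:7558139-7558580) ranked at 26.9, 52.3 and 66.8 in diabetic and at 1.96, 22.9 and 44.1 in control libraries (limma adjusted p = 0.689), and that near Camp averaged 79.4 ± 11.5 in diabetic and 56.8 ± 18.6 in control libraries (SD, n = 6 each). The mean rank at rest of the region at the Mmp8 start was 61.1 in diabetic and 53.6 in control macrophages. The remaining Mmp8 regions differed by 8.41 and 4.84 points after stimulation (limma unadjusted p = 0.287 and 0.524). The part of neutrophils in the results above was not tested. In the other marker lists the leading differences were -18.4 points at the megakaryocyte integrin gene Itga2b, -23.5 at the dendritic cell factor gene Tcf4, 3.29 near the endothelial receptor gene Kdr and 5.36 at the T cell factor gene Gata3, with groups that overlapped at all 4. Of the 5 erythroid and megakaryocytic regions, 0 ranked higher in diabetic macrophages. Detection in the marker lists was most uneven near Mmp8 and near the B cell factor gene Ebf1, with 5 diabetic and 2 control peaks each, and near the mast cell protease gene Cpa3, near Batf3 and in the endothelial adhesion gene Pecam1, with 4 and 1 each (p = 0.242, Fisher's exact test).

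Summit positions were compared in the same 25221 regions, where the median absolute difference between groups was 20.5 bp and the median spread between libraries of a group 48.9 bp (SD). In the limma fit 0 regions passed, with a smallest adjusted p of 0.266, and 1249 (4.95%) had an unadjusted p under 0.05. The smallest p was at a boundary of Fdxr, which encodes ferredoxin reductase of mitochondria (chr11:115276640-115277574). The summit lay 366 ± 43.8 bp from the region's start in diabetic and 570 ± 56.3 bp in control libraries (SD, n = 6 each), a difference of -204 ± 28.3 bp (SE). Of the regions next in order, those at Plxna2, Gm525 and Msl3l2 differed by -105, 109 and 116 bp, with limma adjusted p-values between 0.476 and 0.630.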

How the data were processed

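The authors deposited 1 narrowPeak list per library, called separately, on mm10 per the labels. Per the submitters' processing notes, the tools were MACS2 2.1.1, Bowtie2 2.2.6, DiffBind 2.4.8, edgeR, FastQC 0.11.3 and Trim Galore (listed there as 1.8). Their settings, and any shift of reads for Tn5, are not stated in the sources used here. Per the labels, nuclei of 50000 cells were used, with fragments up to 1200 bp and single reads of 50 bp. Each deposited peak has a score, a fold over local background, a −log10 p-value, a −log10 q-value and a summit position, which are the authors' own values and were used only within a list. The weakest deposited peak had a q-value of 0.0499 (a −log10 q-value of 1.30).

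Overlapping peaks (1 bp or more) among the 1274891 of all 24 lists were joined into 102580 regions. Genes came from RefSeq, GRCm38.p6, without strand or exons. Detection was compared with Fisher's exact test, adjusted (Benjamini-Hochberg) over regions that could reach an unadjusted p under 0.05. Fold ranks (normal scores, variance trend) and summits were fitted with limma 3.58.1 in R 4.3.3. Intervals in percentile points come from limma on percentile ranks. Library values used exact permutation, with a smallest p of 0.00216. Interactions used exact permutation within states, a limma term or Zelen's test. All of these treat the libraries of both states as independent, although each sample was divided between them. The series text says that 6 diabetic and 6 control samples were each split between states, and the comparison was unpaired. The background level was solved from 5000 peaks per library as whole tags with a pseudocount of 1.

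On simulated normal scores of 25221 regions with 200 changed, limma recovered 0%, 12.5% and 73.5% at shifts of 1, 2 and 3 residual SD. These scores were drawn independently per region and, unlike the data, were not ranked within a library. Fisher's exact test, tested on simulated data of 83294 regions, recovered 0 of 200 complete separations and 600 of 600, the latter with 11 false calls. As 420 are needed in the data, both outcomes were largely fixed by the numbers chosen.

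Regions were named by rule: the 10 most uneven in detection and the 10 with the smallest rank p in each direction, the leading region of each gene list in both tests, and 5 summits. Ties in detection went to the higher median −log10 q-value. Of the regions this rule names, 1 in the rank fit and 1 in the summit fit are not reported here. Comparisons, lists (441 genes, 438 matched) and rules were chosen with earlier results of these data known. Alternatives were lists of equal length, a −log10 q of at least 5, other ways of merging, other rank scales, a covariate, a block and leaving out libraries. Motifs outside the start-site table were not analysed here.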

Additional observations from a re-analysis of the deposited data

Results flagged for a closer look

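Of 144 groups of 6 values, 9 (6.25%) held a library far from the other 5, and chance gives about 1 in 20. Diabetic replicate 4 had the lowest density of B cell gene peaks, at 0.0788 per 1000 peaks, and diabetic replicate 6 the highest density of dendritic cell gene peaks, at 1.02 per 1000. Diabetic replicate 5 was far from its group in rank at 3 regions, with 31.2 at one on chromosome 18 with no gene within 50 kb, 20.02 at the start of Tnip1, above the other 5, and 98.1 near Kdr. At Tnip1, control replicate 1 was also far above its group, at 36.5. Control replicate 4 ranked highest at 5430427O19Rik, at 30.2, control replicate 2 highest near Slc2a1, at 4.65, and control replicate 6 lowest in Gata3, at 36.9. No difference between states in a library value passed adjustment, made over 7 library values and over 21 list densities, with 3 at an unadjusted p under 0.05 (exact permutation tests).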

How the results depend on the processing

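In detection, fold rank and summit position, 0 regions passed the adjusted threshold under any alternative that was run. Lists of equal length gave 92 uneven regions on the diabetic and 51 on the control side, with 5 and 4 completely separated. They gave differences of 22.7 bp in median peak width, 2.11 points in the share of resting regions kept, -169 regions of no unstimulated list and 0.34 points of shared regions. A −log10 q of at least 5 left 4 regions on the control side and 16 completely separated ones, summit windows gave 14 on the control side, and genes within 5 kb left 4 of the 7 list regions on the diabetic side. Without diabetic replicate 5 and control replicate 6 (chosen after the data were seen, the lowest diabetic and highest control library in peak number) there were 1377 and 21 uneven and 191 completely separated regions. The library differences were then 9414 peaks, 3.63 Mb, 5.20 bp in width, -3.37 points at gene ends, 6.39 points of resting regions kept, 1500.0 regions of no unstimulated list and 0.0330 tags of background. Leaving out 1 library at a time gave 359 to 722 and 11 to 32 uneven regions on the diabetic and control sides, 32 to 91 and 0 to 2 completely separated ones, 5259 to 7974 peaks, 1.59 to 3.09 Mb, -3.03 to 5.17 bp in width, -2.95 to -1.88 points at gene ends and -0.0445 to 0.0155 tags of background. Of 39 regions named for their rank, 1 turned round when 1 library was left out, a region in Gata3 whose difference spanned -1.72 to 7.70 points. The density of neutrophil gene peaks spanned -0.0069 to 0.0139 per 1000 peaks. Causes were not tested.

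Same-numbered diabetic and control libraries did not deviate together (correlations from -0.161 to 0.0477), so the numbers were not taken to pair samples. With the replicate block, 26 regions on the diabetic and 0 on the control side reached an unadjusted p under 0.05, and the 1.18 points of shared regions had an exact permutation p of 0.0625. Peak number had a block p of 0.0625, adjusted to 0.125. In lists of equal length the block ended the call on the share of resting regions kept (exact permutation p = 0.125). It also ended the calls on regions of no unstimulated list, as a number (p = 0.0938) and as a share of a library's regions (p = 0.0625, exact permutation tests). Each had an adjusted p of 0.125. With all 12 libraries no other adjusted call was there to change. Read depth is unknown, which limits what the absence of a peak can say. Intervals cover the spread between these libraries only.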
